A study of Mus musculus with 10 samples.

Results

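The MHC class I presentation machinery was examined as 10 genes in 10 CT26 tumors that were sampled before treatment. The members were taken by gene name from a table of 36009 genes, all 10 names were found there, and all 10 passed the filter on low counts that left 16041 genes to test. CT26 is a mouse colorectal carcinoma line, grown here under the skin of adult, female, wild-type BALB/c mice. The piece of tumor removed at partial resection was sequenced as polyA RNA, and a hydrogel releasing poly(I:C), a synthetic double-stranded RNA, was then placed on the tumor left behind. Every tumor was therefore untreated when it was sampled, and the groups are defined by what followed: 6 tumors came from responders, in which the residual tumor regressed completely, and 4 from non-responders, in which its growth was not delayed. All tumors derive from a single line in a single strain, and each library is a bulk mixture of tumor cells and host cells, so that fewer cells of a type and less RNA per cell cannot be told apart. The comparison asks how the tumor microenvironment (TME) before treatment differed between those that later responded and those that did not.

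MHC class I molecules carry peptides from inside a cell to its surface, where CD8 T cells read them. Each molecule has a polymorphic heavy chain (H2-K1, H2-D1) and the invariant light chain B2m. Peptides are cut by the proteasome, whose catalytic subunits can be exchanged for the immunoproteasome subunits Psmb8, Psmb9 and Psmb10. The transporter Tap1-Tap2 then pumps them into the endoplasmic reticulum, and tapasin (Tapbp) bridges transporter and heavy chain while a peptide is loaded. Nlrc5 is the transactivator that acts on class I promoters, as Ciita does on class II promoters, and interferon-gamma (IFN-gamma) is the best known inducer of the whole set.

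The shared control elements of the heavy chain genes can be read in their promoters, so sequence upstream of the start sites is shown for H2-K1 and B2m and, as shorter sites, for H2-D1 beside H2-K1. The sequences are RefSeq windows on GRCm38.p6 that run from 250 bases before to 50 after each start site, and 8 of the 10 members had one (9 windows, since H2-K1 has more than 1 annotated start). Tap2 and Nlrc5 were not in that table. All are printed in the direction of the gene, and the reference is that of another strain than BALB/c. In H2-K1 (chr17:34000348-34000467, minus strand, the last 120 bases before the start) capitals mark, from left to right, a kappaB palindrome, the class I interferon consensus, an X2-like site and a CCAAT box, with the interferon consensus and the CCAAT box read on the opposite strand. In B2m (chr2:122147537-122147656, plus strand, positions -150 to -31 from the start) capitals mark the core of an interferon-stimulated response element and a CCAAT box on the opposite strand. No annotated exon overlaps either stretch.
H2-K1: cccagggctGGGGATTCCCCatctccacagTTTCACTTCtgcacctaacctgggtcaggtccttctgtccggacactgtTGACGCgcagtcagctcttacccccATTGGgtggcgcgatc
B2m: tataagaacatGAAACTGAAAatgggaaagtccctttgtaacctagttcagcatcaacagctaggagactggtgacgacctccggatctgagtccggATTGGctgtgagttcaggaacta

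The kappaB stretch of the heavy chain genes is nearly identical, and the stretch around the X2-like site less so. The kappaB site and the bases around it lie at chr17:34000438-34000467 (minus strand) in H2-K1 and at chr17:35262914-35262943 (plus strand) in H2-D1, and 29 of 30 bases were identical. The X2-like site lies at chr17:34000371-34000400 (minus strand) and chr17:35262981-35263010 (plus strand), with 24 of 30 bases identical. The H2-D1 stretches fall within a 5′ untranslated exon of a longer annotated transcript, H2-D1-202, and capitals mark the motif in each. Every stretch was placed on a match to its motif, so the capitals are identical by selection and only the bases around them could differ.
H2-K1 kappaB: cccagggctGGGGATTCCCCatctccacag
H2-D1 kappaB: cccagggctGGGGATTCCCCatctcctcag
H2-K1 X2-like: tccggacactgtTGACGCgcagtcagctct
H2-D1 X2-like: ccgggacactgaTGACGCgctggcaggtct

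A set of 6 motifs was searched on both strands in all 32851 windows of the table, with overlaps between motifs allowed. The kappaB palindrome, in capitals above, was in 10 windows (0.0304%), among them both H2-K1 windows and the windows of H2-D1 and of the nonclassical gene H2-Q6. The X2-like letters TGACGC were in 7.4% of windows and CCAAT in 37.4%, and kappaB, TGACGC and CCAAT came together in 3 windows (0.00913%). The class I interferon consensus GAANTGAAA was in 1.83% of windows and, among the members, in H2-K1 and H2-D1. The core of the interferon-stimulated response element, GAAA and GAAA parted by any 2 bases, was in 3.44% of windows and, among the members, in B2m at -139 from the start. The gamma-activated letters TTCNNNGAA were in 8.3% of windows and, among the members, in Psmb8 at -97. Tapbp, Psmb9 and Tap1 held only CCAAT, and the Psmb10 window held none of the 6. Tap1 and Psmb9 are divergent neighbors whose start sites, at 34187556 and 34187330 on chromosome 17, have 225 bases between them, so their windows share 275 bases. A match is a description of letters and was not set against binding in these tumors.

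All 10 members were higher by estimate in responders, and none passed the test across all genes. The log2 fold change, responder minus non-responder, ran from 0.44 (B2m) to 0.82 (Psmb9) with a median of 0.62, where the median of all 16041 genes was -0.01. In linear terms the responder mean was between 1.36 and 1.76 times the non-responder mean. The test was edgeR's quasi-likelihood test with Benjamini-Hochberg adjustment over all genes tested, and a gene is said to be called where its adjusted p is under 0.05. By that rule 0 of the 10 members were called, against 8.06% of all genes tested (4.71% called higher and 3.35% called lower in responders). Unadjusted p-values were under 0.05 for 9 of 10 members, against 15.6% of all genes tested that were higher in responders at that level, and edgeR adjusted p-values ran from 0.0517 (Tapbp) to 0.176 (Nlrc5). An estimate above 0 was found for 48.2% of all genes. For 7 of the 10 members every responder lay above every non-responder, which held for 5.84% of all genes tested, while the opposite order held for 4.55%.

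The absence of calls depended on the test and on single tumors. DESeq2, which called 16.2% of all genes, called 5 members: Tapbp (adjusted p = 0.0043), Tap2 (adjusted p = 0.0067), H2-D1 (adjusted p = 0.017), B2m (adjusted p = 0.0213) and H2-K1 (adjusted p = 0.0465). With limma voom (6.75% of all genes called) Tapbp alone was called, at an adjusted p of 0.0484. Without non-responder 2, edgeR called 6 members (H2-D1, B2m, Tap1, Tap2, Tapbp and Psmb8), with 11.7% of all genes called. Without non-responder 1 the log2 fold changes were between 0.29 and 0.53. In that fit edgeR called 0 members and 0.0982% of all genes. Unadjusted edgeR p-values there were under 0.05 for all 10 members, against 3654 of 16285 genes in either direction. Expression is given below as CPM, the count scaled to the TMM-adjusted total of its library, as mean ± SD over 6 responders and 4 non-responders. Non-responder values follow in the order 1 to 4, a numbering that only names the tumors.

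**Figure D1:**
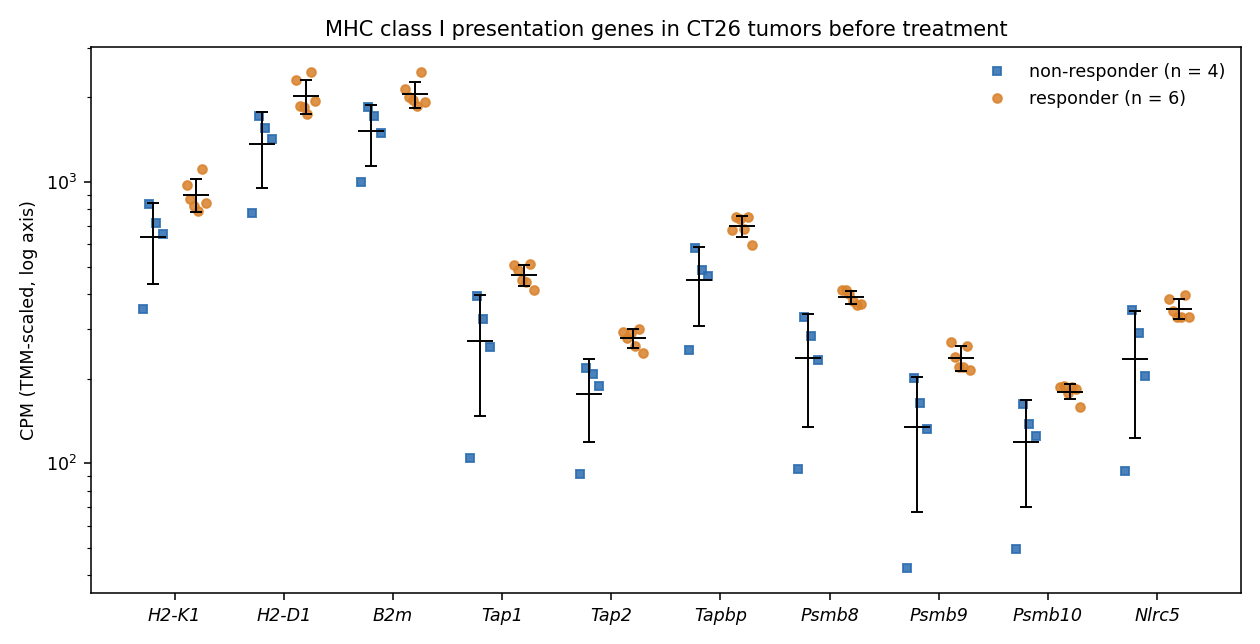
CPM (log axis) of the 10 members in each tumor, non-responders as blue squares and responders as orange circles, with black bars at the mean and SD of each group (n = 4 and n = 6). The lowest square of every gene is non-responder 1, and squares reach into the range of the circles for H2-K1, Psmb10 and Nlrc5.

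The classical heavy chains H2-K1 and H2-D1, the chains that hold the peptide, were abundant in every tumor. H2-K1 (ENSMUSG00000061232, GRCm38 chromosome 17, 33996017 to 34000347, minus strand) ranged in responders from 787 to 1113 CPM with a median of 858, and in non-responders it was at 355, 834, 718 and 651 CPM. Non-responder 2 exceeded 2 of the responders and the other non-responders lay below all of them. The means were 903 ± 122 CPM and 639 ± 204 CPM, a log2 fold change of 0.50 with an SE of 0.19 (edgeR adjusted p = 0.119). H2-D1 (ENSMUSG00000073411, chromosome 17, 35262730 to 35267499, plus strand) ranged from 1749 to 2460 CPM in responders with a median of 1906, and was at 776, 1718, 1555 and 1421 CPM in non-responders. The groups did not overlap, with non-responder 2 just under the lowest responder. The means were 2029 ± 285 CPM and 1368 ± 413 CPM (log2 fold change 0.57 with an SE of 0.19, adjusted p by edgeR = 0.0797).

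Counts of single heavy chain genes are uncertain, because the genes resemble each other and the BALB/c alleles differ from the reference. Pseudoalignment places reads by words of 31 bases. Of these words in annotated H2-K1 transcripts, 22.8% also occurred in transcripts of other genes, and for H2-D1 the share was 26.9%. H2-D1 was the gene that shared most with H2-K1 (11.1% of its words), and the reverse also held (13.8%). The counts of all 31 class I heavy chain genes were therefore added up, classical and nonclassical, of which 27 had any count and 19 were tested singly. The sum does not depend on how reads were split among these genes, but it cannot recover BALB/c reads that match none of them. The total ranged from 5149.9 to 6795 CPM in responders, with a mean of 5807 ± 637 CPM. In non-responders it was at 2030.4, 5089.8, 4389.9 and 3918 CPM, with a mean of 3857 ± 1309 CPM. Every responder lay above every non-responder, the nearest being responder 4 and non-responder 2, and the log2 fold change was 0.59 (SE 0.20, edgeR adjusted p = 0.0856). As the reads were assigned, H2-K1 and H2-D1 made up 49.1% to 55.7% of the total in the 10 tumors. Unlike the sum, this share does depend on how reads were split, so it does not measure the classical part. The 17 heavy chain genes tested outside the members, all counted here as nonclassical, had a higher estimate in responders. Reads can be split among similar heavy chain genes, so these 17 genes are not separate observations. By edgeR 0 of them were called, against 4.71% of all genes called higher. Unadjusted edgeR p-values were under 0.05 for 16, against 15.6% of all genes that were higher at that level. DESeq2 called 8 (16.2% of all genes in either direction) and limma voom 1 (6.75%). H2-Q4, the most abundant of them, averaged 707 ± 25.7 CPM against 456 ± 154 CPM (log2 fold change 0.63, edgeR adjusted p = 0.0611), and H2-T23, the Qa-1 heavy chain, had a log2 fold change of 0.88 (edgeR adjusted p = 0.0684).

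B2m, the light chain that every class I heavy chain needs, had the smallest difference of the 10. It lies on chromosome 2 (ENSMUSG00000060802, 122147686 to 122153083, plus strand), apart from the MHC, and its transcripts shared none of their 31-base words with another gene. Responders ranged from 1859 to 2454 CPM with a median of 1979, and non-responders were at 1003, 1851, 1711 and 1492 CPM. Non-responder 2 lay just under the lowest responder and the groups did not overlap. The means were 2057 ± 217 CPM and 1514 ± 372 CPM (log2 fold change 0.44 with an SE of 0.15, adjusted p by edgeR = 0.0804). As a ratio within each tumor, H2-K1 to B2m on the log2 scale was -1.19 ± 0.050 in responders and -1.27 ± 0.156 in non-responders, a difference of 0.08 (two-sided exact permutation test, p = 0.224, and 0.224 when adjusted over 6 ratios). H2-D1 to B2m was -0.02 ± 0.079 and -0.17 ± 0.135, a difference of 0.15 that did not pass after adjustment (exact permutation p = 0.0476, adjusted p = 0.0571). Without non-responder 1 these differences were 0.0078 and 0.08, and without non-responder 4 the H2-D1 ratio passed, with a difference of 0.18 (exact permutation, adjusted p = 0.0286).

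The peptide transporter and tapasin did not overlap between the groups for any of the 3 genes. Every responder lay above every non-responder, an order found for 5.84% of all genes tested. Tap1 (ENSMUSG00000037321, chromosome 17, 34187553 to 34197225, plus strand) ranged from 414 to 513 CPM in responders with a median of 469. In non-responders it was at 105, 395, 326 and 260.0 CPM, all below the lowest responder. The means were 469 ± 40.0 CPM and 271 ± 124 CPM, and the log2 fold change of 0.79 was the second highest of the members (SE 0.27, edgeR adjusted p = 0.0863). Tap2, its partner subunit (ENSMUSG00000024339, chromosome 17, 34203527 to 34216321, plus strand), ranged from 246 to 301 CPM in responders with a median of 285. The non-responders were at 91.9, 219, 208 and 189 CPM, below every responder. Its means were 279 ± 21.2 CPM and 177 ± 58.0 CPM (log2 fold change 0.65 with an SE of 0.19, adjusted p by edgeR = 0.0583).

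Tapbp (ENSMUSG00000024308, chromosome 17, 33915899 to 33929292, plus strand) had the smallest p-value of the 10, which placed it at rank 1356 of the 16041 genes. It ranged from 595 to 750.5 CPM in responders with a median of 711, and was at 253, 584, 488 and 464 CPM in non-responders. The lowest responder and the highest non-responder were close and no values crossed. The means were 699 ± 60.7 CPM and 447 ± 140 CPM (log2 fold change 0.64 with an SE of 0.18, adjusted p by edgeR = 0.0517). Part of the sequence of these genes is shared with overlapping annotated genes, 22.1% of the 31-base words of Tapbp with Gm19412 and 11.3% of those of Tap2 with Gm15821. The annotated gene spans of Tap1 and Psmb9 overlap by 212 bases on opposite strands. The span of Psmb9 reaches to 34187764, beyond the RefSeq start site given above. Tap1 and Psmb9 share 3.26% of Tap1's words, and the strand setting of the counting is not given in the sources used here.

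The immunoproteasome subunits, which replace their constitutive counterparts in the catalytic core, were lowest in non-responder 1. Psmb8 (ENSMUSG00000024338, chromosome 17, 34197721 to 34201454, plus strand) ranged only from 365 to 414 CPM in responders with a median of 389, and was at 95.6, 332, 285 and 234 CPM in non-responders. All 4 non-responders lay below all responders (means 389 ± 22.1 CPM and 237 ± 102 CPM, log2 fold change 0.72 with an SE of 0.25, adjusted p by edgeR = 0.0923). Psmb9 (ENSMUSG00000096727, chromosome 17, 34181987 to 34187764, minus strand) ranged from 214 to 271 CPM with a median of 229.5, and was at 42.3, 202, 164 and 132 CPM in non-responders. Its non-responder values differed by a factor of 4.77 from lowest to highest, or by 1.53 without non-responder 1, and the groups did not overlap. The means were 238 ± 24.1 CPM and 135 ± 68.1 CPM (log2 fold change 0.82 with an SE of 0.31, adjusted p by edgeR = 0.114). Psmb10 (ENSMUSG00000031897, chromosome 8, 105935735 to 105938444, minus strand) ranged from 159 to 188 CPM with a median of 185, and was at 49.7, 162, 138 and 125 CPM in non-responders. Non-responder 2 exceeded the lowest responder and no other values crossed (means 180.0 ± 10.9 CPM and 119 ± 48.6 CPM, log2 fold change 0.60 with an SE of 0.24, adjusted p by edgeR = 0.127).

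The constitutive subunits that these replace, Psmb5, Psmb6 and Psmb7, differed little between the groups, with log2 fold changes of -0.04, 0.01 and -0.07 (edgeR adjusted p = 0.677, 0.866 and 0.269). Their summed level ran from 241 to 251 CPM in responders and from 243 to 264 CPM in non-responders. The RNA of each immunoproteasome subunit was also read as its ratio to that of its counterpart within a tumor, a measure that library scaling does not touch. The exchange of subunits in proteasomes was not measured. Because the counterparts differed little, the ratios largely repeat the differences of Psmb8, Psmb9 and Psmb10. Their p-values were adjusted over 6 ratios and not over all genes. Psmb9 to Psmb6, on the log2 scale, ranged from 1.10 to 1.44 in responders with a median of 1.22, and was at -1.15, 0.98, 0.70 and 0.41 in non-responders. All responders lay above all non-responders, and the means of 1.24 ± 0.140 and 0.23 ± 0.954 differed by 1.01 (two-sided exact permutation test, p = 0.00476, which is the lowest value possible with 210 splits, adjusted p = 0.0143 over 6 ratios). Psmb8 to Psmb5 ranged from 3.32 to 3.67 in responders with a median of 3.53, and was at 1.45, 3.39, 2.99 and 2.63 in non-responders. It averaged 3.52 ± 0.117 in responders and 2.62 ± 0.836 in non-responders, with 5 of 6 responders above all non-responders (difference 0.90, exact permutation p = 0.00952, adjusted p = 0.0143). Psmb10 to Psmb7 ranged from 0.46 to 0.78 with a median of 0.69, and was at -1.20, 0.50, 0.22 and -0.02 in non-responders. It averaged 0.67 ± 0.109 and -0.13 ± 0.746, again with 5 of 6 responders above all non-responders (difference 0.79, exact permutation p = 0.00952, adjusted p = 0.0143). The size of these differences rested in part on non-responder 1: without it they were 0.51 for Psmb8, 0.55 for Psmb9 and 0.43 for Psmb10, and all 3 still passed (exact permutation, adjusted p = 0.0357 for each). Psmb5 shared 71.7% of its 31-base words with other genes, 59.8% with Gm3375, so its own level is less certain than that of Psmb6 (6.24% shared) and Psmb7 (11.3%).

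**Figure D2:**
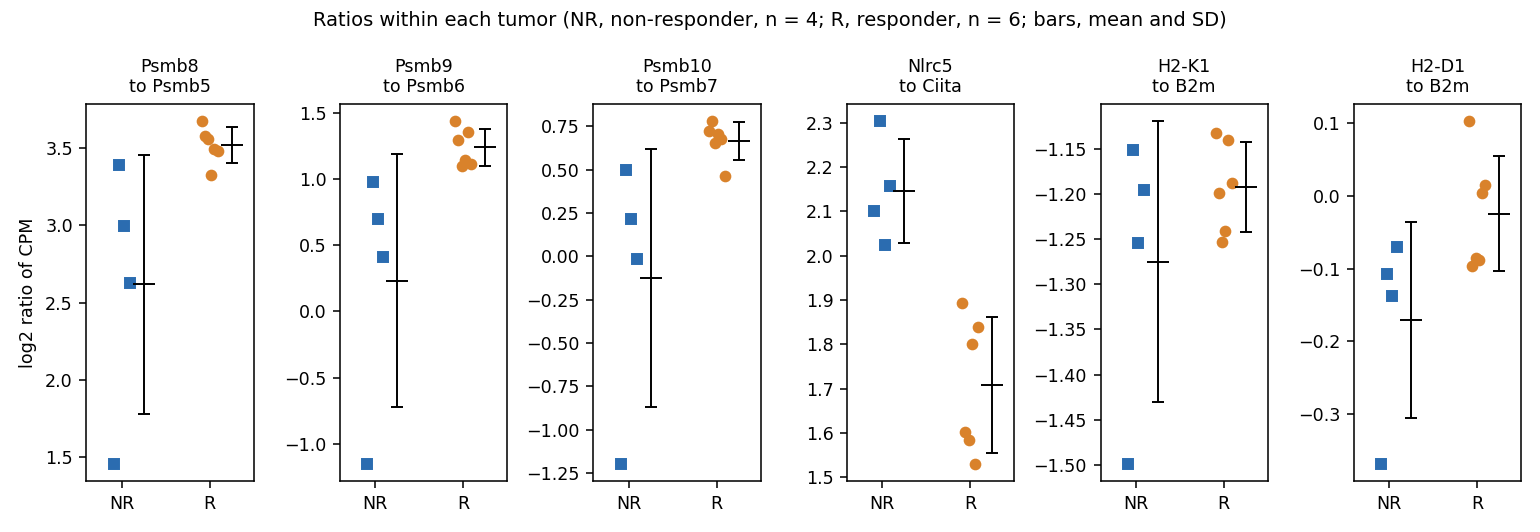
Log2 ratio of CPM between 2 genes of the same tumor, 1 panel per ratio with its own axis, for non-responders (blue squares, n = 4) and responders (orange circles, n = 6), with the mean and SD beside the points. The 3 immunoproteasome ratios were higher and Nlrc5 to Ciita was lower in responders, and the heavy chain to B2m ratios overlapped.

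Nlrc5 (ENSMUSG00000074151, chromosome 8, 94434356 to 94527272, plus strand), the class I transactivator, had the largest p-value of the members. Responders ranged from 332 to 395 CPM with a median of 339, and non-responders were at 93.9, 352, 290.0 and 205 CPM. Non-responder 2 exceeded 4 of the 6 responders, and the other non-responders lay below all of them. The means were 354 ± 28.9 CPM and 235 ± 112 CPM (log2 fold change 0.59 with an SE of 0.27, adjusted p by edgeR = 0.176). Ciita, its class II counterpart, was at 109 ± 16.1 CPM in responders and 52.6 ± 23.7 CPM in non-responders and was called higher (log2 fold change 1.05 with an SE of 0.27, adjusted p by edgeR = 0.0423). The ratio of Nlrc5 to Ciita was lower in every responder than in every non-responder. On the log2 scale it ranged from 1.53 to 1.89 in responders with a median of 1.70, and was at 2.10, 2.30, 2.03 and 2.16 in non-responders, with means of 1.71 ± 0.154 and 2.15 ± 0.118. The difference of -0.44 (two-sided exact permutation test, p = 0.00476, adjusted p = 0.0143) stayed between -0.48 and -0.39 when any single tumor was left out.

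Ciita and the class II genes it acts on had larger estimates than the class I members, a difference that was tested only for Nlrc5 against Ciita. Of 7 class II genes (Ciita, H2-Aa, H2-Ab1, H2-Eb1, H2-DMa, H2-DMb1 and Cd74) 6 were called higher, against 4.71% of all genes tested. The median log2 fold change of the 7 was 1.13 against 0.62 for the members. H2-Ab1, a class II beta chain, had a log2 fold change of 1.28 (edgeR adjusted p = 0.033), and Cd74, the invariant chain, of 1.13 (edgeR adjusted p = 0.0452). H2-Aa, the alpha chain, narrowly missed the threshold (log2 fold change 1.15, edgeR adjusted p = 0.0509). By edgeR 0 of the 7 genes were called when any of 7 tumors was left out (non-responder 1, 3 or 4, or responder 1, 2, 3 or 5), and 1 was called without responder 6. Calls over all genes fell in the same 7 fits, from 1293 to between 0 (without non-responder 4) and 553 (without responder 1). Without non-responder 2 or responder 4, where calls over all genes rose to 1897 and 1619, all 7 class II genes were called. All 7 had an unadjusted p under 0.05 without non-responder 1. Without non-responder 1 the log2 fold change of Ciita was 0.80 (edgeR adjusted p = 0.0555).

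**Figure D3:**
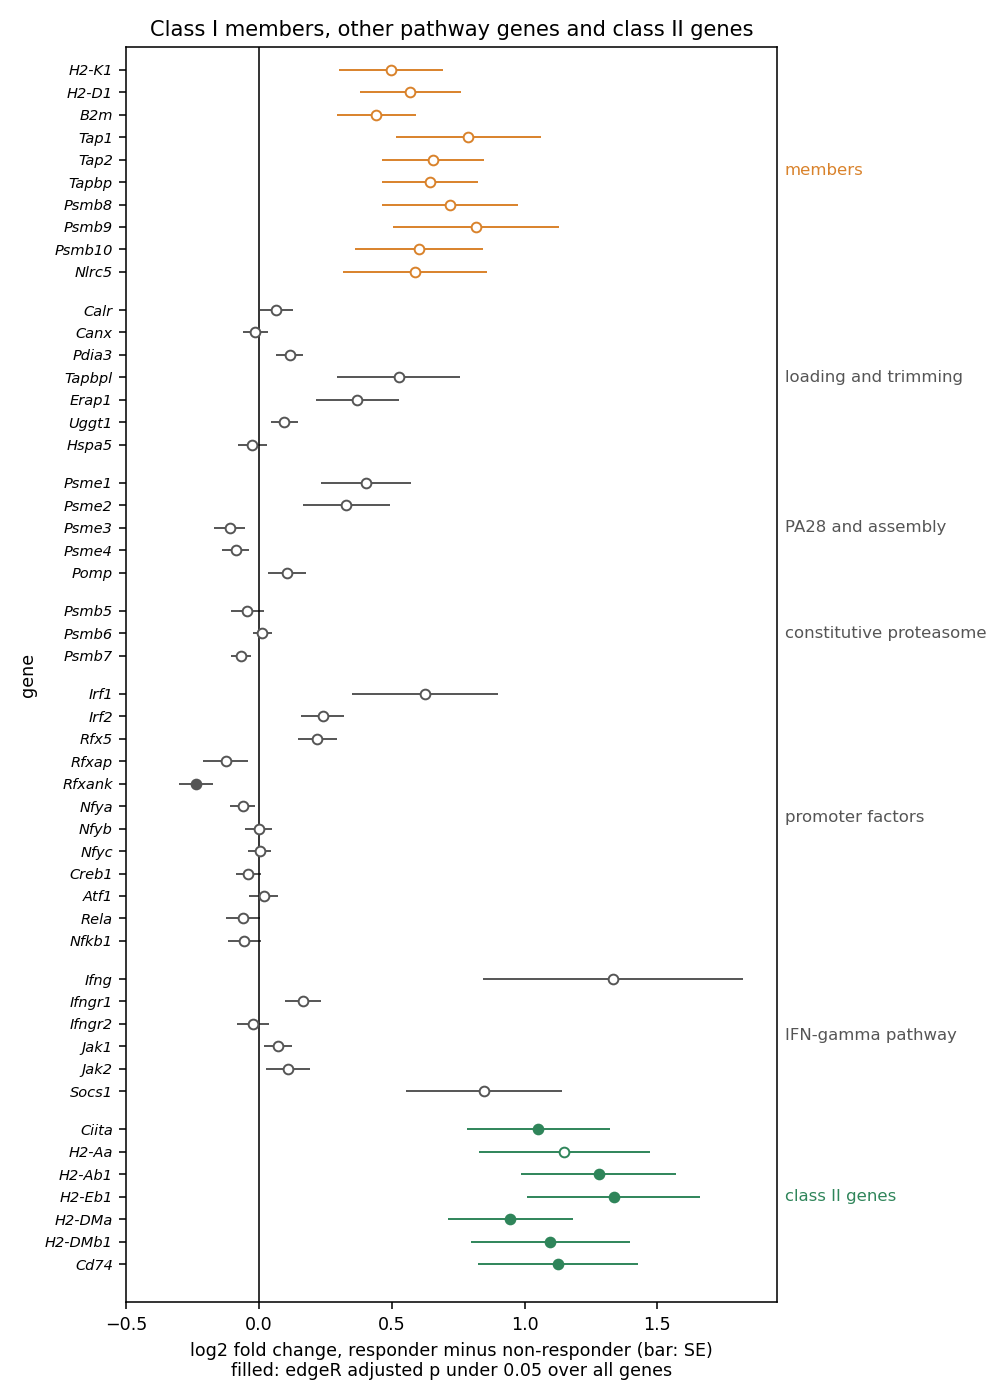
Log2 fold change of responders over non-responders for the members (orange), other class I pathway genes by list (gray) and class II genes (green), with bars for the SE and filled points for an edgeR adjusted p under 0.05. The 10 members lie between 0.44 and 0.82 with open points, the constitutive proteasome subunits lie near 0, and the class II genes lie to the right of the members.

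The members moved together from tumor to tumor. Non-responder 1 was the lowest tumor for all 10 genes, at 17.8% to 48.8% of the responder mean, and non-responder 4 was the second lowest for all 10. Non-responder 2 was the highest of its group for all 10, and it alone exceeded any responder, for 3 members. The other 3 non-responders lay below every responder for all 10 genes. Averaged over the members, log2 CPM relative to the mean of each gene was -1.51, 0.02, -0.19 and -0.41 in the non-responders and 0.31, 0.23, 0.18, 0.12, 0.36 and 0.08 in responders 1 to 6. Among responders the highest and lowest tumor of a gene differed by a factor of 1.13 (Psmb8) to 1.41 (H2-K1), and among non-responders by a factor of 1.85 (B2m) to 4.77 (Psmb9). Without non-responder 1 the factor among non-responders ran from 1.16 (Tap2) to 1.72 (Nlrc5). Responder 5 was the highest tumor for 6 members, responder 2 for 3 and responder 1 for 1. Together the members took 0.684% to 0.878% of the counts of a responder and 0.287%, 0.671%, 0.581% and 0.520% of those of the non-responders.

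**Figure D4:**
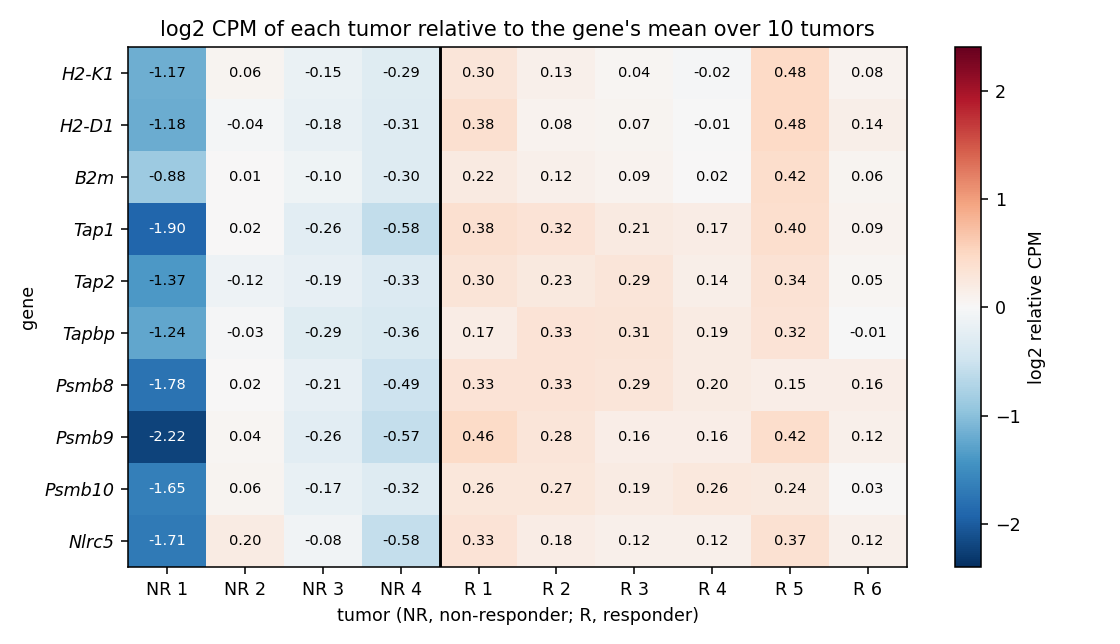
Log2 CPM of each member (rows) in each tumor (columns, NR for non-responder and R for responder) relative to the mean of that gene over the 10 tumors, from blue (low) to red (high). The column of non-responder 1 holds the lowest value of every row, from -0.88 for B2m to -2.22 for Psmb9.

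Pearson correlations of log2 CPM between members over the 10 tumors ran from 0.935 to 0.997 over the 45 pairs, with a median of 0.974. Leaving out non-responders 1 and 4, which lay farthest from the median tumor, they ran from 0.484 to 0.983 over 8 tumors with a median of 0.860. These values describe tumors that share a group and a cell mixture, and no p was computed. Of the 16031 other genes, those most like the mean log2 CPM of the members were H2-T23 (r = 0.998), Gbp9 (0.997), Idnk (0.997), Gm4951 (0.996), Psma4 (0.995), Gbp5 (0.995), Skap2 (0.995), Gbp7 (0.995), Irf9 (0.994) and Gbp6 (0.994), over 10 tumors. Gbp5, Gbp6, Gbp7 and Gbp9 encode guanylate-binding proteins, IFN-induced GTPases, Irf9 encodes a subunit of the type I IFN transcription factor, and Psma4 a structural subunit of the proteasome. Without the same pair of tumors the correlations of these 10 genes ran from 0.934 (Irf9) to 0.990 (H2-T23).

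Levels of different members were compared per kilobase, as CPM divided by the length of the longest annotated protein-coding transcript. B2m led in responders with 2391 ± 252 CPM per kilobase, followed by H2-D1 (965 ± 135) and H2-K1 (558 ± 75.4). Tapbp (241 ± 20.95) and Psmb8 (239 ± 13.6) came next and did not differ beyond their spread. Psmb9 (176 ± 17.8), Tap1 (159 ± 13.5) and Psmb10 (137 ± 8.34) followed, each within the summed SDs of the next, then Tap2 (80.9 ± 6.15 CPM per kilobase) and last Nlrc5 (46.7 ± 3.81). The order in non-responders was the same, from 1761 ± 432 CPM per kilobase for B2m to 31.05 ± 14.8 for Nlrc5, and there Tap1 (91.9 ± 42.0) and Psmb10 (90.5 ± 37.0) were nearly equal.

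Of 34 further genes of the class I pathway, all were tested. By edgeR 0 were called higher and 1 lower, against 4.71% and 3.35% of all genes. Unadjusted edgeR p-values were under 0.05 for 12, of which 11 had a higher estimate. Over all genes they were so for 4665 of 16041, with 15.6% of all genes higher at that level. DESeq2 called 4 higher and 1 lower (16.2% of all genes in either direction), and limma voom 0 (6.75%). Estimates were above 0 for 20 genes and below 0 for 14, with a median log2 fold change of 0.04. In the loading and trimming list (7 genes, 5 with a higher estimate) the genes with larger values were Tapbpl, a tapasin homolog that edits peptides (log2 fold change 0.53, edgeR adjusted p = 0.158), and Erap1, which trims them (0.37, adjusted p = 0.142). Without non-responder 1 these values were 0.28 and 0.20. Pdia3, a chaperone of loading, had a log2 fold change of 0.12 (edgeR unadjusted p = 0.0450, adjusted p = 0.160). It was the only gene of the list with every responder (lowest 729 CPM) above every non-responder (highest 726 CPM). That order held for 5.84% of all genes tested. Calr, another chaperone, was at 0.06 (edgeR adjusted p = 0.530). The PA28 activator subunits Psme1 and Psme2 had log2 fold changes of 0.40 and 0.33 (edgeR adjusted p = 0.141 and 0.208), which were 0.22 and 0.16 without non-responder 1.

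Among 13 factors that bind class I promoters, 6 had a higher and 7 a lower estimate. Irf1, an activator of class I promoters that IFN induces, had a log2 fold change of 0.62 (edgeR adjusted p = 0.158), or 0.38 without non-responder 1. Irf2 and Rfx5 were at 0.24 and 0.22 (edgeR adjusted p = 0.0834 and 0.0771), or 0.16 and 0.15 without that tumor. The single call was Rfxank, a subunit of the RFX complex that binds the X box beside the X2 site, which was lower in responders (11.6 ± 0.773 CPM against 13.7 ± 0.475 CPM, log2 fold change -0.24 with an SE of 0.06, adjusted p by edgeR = 0.0472). That call was lost when any tumor but responder 6 was left out (edgeR adjusted p up to 0.114), while the log2 fold change stayed between -0.28 and -0.22. Calls over all genes also fell in 7 of these 9 fits. Of 6 genes of the IFN-gamma pathway 5 had a higher estimate, with Ifng itself at 3.16 ± 1.35 CPM against 1.26 ± 0.856 CPM (log2 fold change 1.33 with an SE of 0.49, adjusted p by edgeR = 0.102) and Socs1, its feedback inhibitor, at a log2 fold change of 0.85 (edgeR adjusted p = 0.0866).

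The 5 general leukocyte markers were higher by estimate in responders, as the members were, while markers of fibroblasts and endothelium had no calls. Over all genes tested, edgeR called 4.71% higher, and DESeq2 called 16.2% and limma voom 6.75% in either direction. An unadjusted edgeR p under 0.05 was found for 4665 of 16041 genes. The summed level of 5 leukocyte genes (Ptprc, Cd53, Coro1a, Laptm5 and Itgb2) ran from 1118 to 1688 CPM in responders and from 705 CPM in non-responder 1 to 1029 CPM in non-responder 2, and 4 of the 5 were called higher. The 6 CD8 and cytotoxic lymphocyte genes summed to 141 to 333 CPM in responders and 30.6 to 145 CPM in non-responders, lowest in non-responder 1, with 3 called higher. The 7 macrophage genes summed to 2313 to 3474 CPM against 1742 to 2273 CPM (4 called higher). By estimate 6 of them were higher, Mertk by a log2 fold change of only 0.03, and Mrc1 was lower (-0.13). The 6 dendritic cell genes summed to 249 to 327 CPM against 118 to 278 CPM (1 called). Most of that sum was Itgax (242 ± 24.8 CPM against 174 ± 76.0 CPM). By estimate 5 of the 6 were higher, Flt3 by only 0.01, and Zbtb46 was lower (-0.16). The 5 T cell genes summed to 30.3 to 109 CPM against 16.6 to 37.9 CPM, with 0 called by edgeR or limma voom, 3 by DESeq2 and 5 at an unadjusted edgeR p under 0.05. B cell genes summed to 2.87 to 7.33 CPM against 2.10 to 3.51 CPM, with 0 called by edgeR or limma voom, 1 by DESeq2 and 1 at an unadjusted edgeR p under 0.05. Of the 3 that were tested 2 were higher by estimate and Cd79a was lower (log2 fold change -0.09). Fibroblast and endothelial genes (4 each) had 0 calls by any of the tools and 0 unadjusted edgeR p-values under 0.05, and the fibroblast sum was highest in non-responder 1 (4182 CPM). Skeletal muscle genes summed to 316 to 1038 CPM against 287 to 373 CPM (2 of 4 called higher), and adipocyte genes to 15.6 to 52.0 CPM against 8.54 to 18.9 CPM (0 of 4 called by edgeR or limma voom, 4 by DESeq2, all 4 at an unadjusted edgeR p under 0.05). Without non-responder 1 edgeR called 0 genes of these lists and 0.0982% of all genes. Unadjusted edgeR p-values in that fit were under 0.05 for 5 leukocyte, 6 CD8 and cytotoxic, 4 macrophage and 3 T cell genes. The same held for 2 dendritic cell, 1 B cell, 4 skeletal muscle and 4 adipocyte genes, for 0 fibroblast or endothelial genes, and for 3654 of 16285 genes in all. No list was at 0 in all tumors. The part that these cells have in the levels of the members was not tested.

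The labelled cell type, colorectal carcinoma, was only partly visible in its epithelial markers. Epcam, Krt8, Krt18 and Vil1 were under 1 CPM in every tumor and failed the filter, while Krt20 was at 29.1 ± 9.80 CPM in responders and 52.9 ± 18.5 CPM in non-responders. The 8 epithelial genes summed to 17.5 to 42.1 CPM in responders and 40.3 to 84.8 CPM in non-responders, and most of that sum was Krt20. The sum was highest in non-responder 1, where Krt20 alone was at 75.3 CPM. Of the 4 genes tested 0 were called by edgeR or limma voom, 1 by DESeq2, and 3 had an unadjusted edgeR p under 0.05. Libraries held between 23374649 and 38042544 estimated counts, and depth partly followed response. Non-responders 1 to 4 held 24753763, 26563619, 23374649 and 32986456, and the shallowest responder, responder 3, held 29065126. No pair of the 45 was as alike as the same library deposited again (chi-square over its degrees of freedom 10.9 to 122.4).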

How the data were processed

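PolyA RNA from 10 tumors was sequenced in paired-end reads. The authors ran FastQC for quality, Kallisto for pseudoalignment to transcripts and tximport for gene-level values on mm10 (GRCm38), and the deposited values are estimated counts per gene, 45.1% of them not whole, with no scaling to depth. The tximport option, annotation release and strand setting are not given in the sources used here. Of the rows, 9633 had no gene name (1.04% to 1.23% of counts), and these stayed in library sizes and tests under their identifiers. GENCODE M21 matched 35912 identifiers.

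Estimated counts were rounded and analyzed with R 4.3.3, edgeR 4.0.16 (filterByExpr minimum count 10 and total 15, TMM, quasi-likelihood test, two-sided), DESeq2 1.42.0 and limma 3.58.1, and tested on simulated data first. The SE is the log2 fold change over the square root of F. Ratios used a prior count of 2 and an exact permutation test over 210 splits. Depth per tumor was 23374649 to 38042544 counts, and its intervals would cover counting error only. Groups came from the response in the labels, with no batch or pairing given, and each tumor came from a mouse of its own per the methods. Other scalings, filters, tests and leaving out each tumor were tried. The 31-base words came from GENCODE M21 transcripts, read on both strands.

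The members and lists were chosen with earlier results of these data known. All members are named, with every pathway list described by its counts and its genes with larger or reference values, the most abundant heavy chain genes and the 10 genes most like the members. A gene of the promoter factor list is counted there but is not reported here or drawn.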

Additional observations from a re-analysis of the deposited data

Results flagged for a closer look

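Of 56 sets of values examined (each member, ratio, marker sum and the heavy chain total, in each group), 2 held a tumor that stood far from the rest of its group by Dixon's rule, where chance gives about 1 in 20 sets, or 2.8. Psmb10 in responder 6 was at 159.0 CPM, below the next responder at 177.3 CPM and the highest at 187.6 CPM, so that the gap took 0.641 of the range. The summed skeletal muscle markers in non-responder 2 were at 373.3 CPM, above the next non-responder at 296.3 CPM and the lowest at 287.0 CPM, a gap of 0.893 of the range. Non-responder 2 was also the non-responder with the highest level of every member.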

How the results depend on the processing

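None of the 10 members changed direction in 170 values over 17 alternatives, whose log2 fold changes ran from 0.29 to 1.08, and 12 of these values passed the threshold. The number of members called was 0 by edgeR (8.06% of all genes called), 5 with DESeq2 (16.2%) and 1 with limma voom (6.75%). It was from 0 to 6 when a tumor was left out. Calls over all genes, 1293 by edgeR, then ran from 0 without non-responder 4 to 1897 without non-responder 2, the fit with the 6 members. The number of other pathway genes called, 1 by edgeR, was 0 with library totals, with limma voom and with no low-count filter, 5 with DESeq2, and 0 to 2 when a tumor was left out. The heavy chain total passed with DESeq2 at a log2 fold change of 0.59 (adjusted p = 0.0191) and ran from 0.38 to 0.75 when a tumor was left out, passing without non-responder 2. The H2-D1 to B2m difference ran from 0.080 to 0.18 when a tumor was left out. The constitutive subunit Psmb6 had a log2 fold change of 0.01, which ran from -0.0074 without non-responder 1 to 0.0273 when a tumor was left out. The Psmb8 to Psmb5, Psmb9 to Psmb6, Psmb10 to Psmb7 and Nlrc5 to Ciita ratios, adjusted over 6 ratios only, passed under every alternative run for ratios. Those alternatives varied the prior count or left out a tumor, since library scaling does not touch a ratio. Why results differed between the alternatives of this section was not tested. No paired analysis was possible because the tumors of the groups share no replicate number or animal in the labels. The lowest estimated count of any member was 1047, for Psmb9 in non-responder 1.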
